A study of Mus musculus with 4 samples.

Results

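Macrophage genes were examined in bulk RNA-Seq of nasal process (NP) tissues from E11.5 mouse embryos. The members are 10 genes given by symbol, with no threshold on a measured value: *Csf1r*, *Cx3cr1*, *Mrc1*, *C1qa*, *C1qb*, *C1qc*, *Fcer1g*, *Tyrobp*, *Aif1* and *Lyz2*. Of these, 9 have a row in the table, which lists 13577 genes, and *Lyz2*, the lysozyme of macrophages and granulocytes, has none and was not analyzed here. Each of the 9 had a mean above 1 CPM (reads scaled to a common library total) over all libraries and passed the filter on low values. *C1qa* passed only through the libraries titled ca-*Acvr1* mutant, with means of 0.666 CPM in control and 3.38 CPM in mutant libraries.

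Embryonic macrophages arise from blood precursors of the yolk sac and the fetal liver, settle in the tissues of the embryo, and are not derived from the neural crest. They depend on CSF1R, the receptor for the growth factors CSF1 and IL34, and they engulf dying cells. The complement component C1q, scavenger receptors and receptors that signal through the adaptors TYROBP and FCER1G serve this clearance.

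The libraries analyzed here are 2 titled control and 2 titled ca-*Acvr1* mutant, of the line ca-*Acvr1(A11)* and called mutant libraries from here. Mutant embryos carry 1 floxed ca-*Acvr1* transgene of line A11, which encodes a constitutively active BMP type I receptor, together with *P0-Cre*, and controls carry *P0-Cre* without it. *P0-Cre* drives recombination in neural crest cells, the source of the facial mesenchyme, and all 4 libraries share it. The number of embryos behind a library is not given in the sources used here, and nothing says that the libraries came from separate litters, so p-values measure only the spread between these libraries. The genotype entries conflict with the titles, since they place the transgene in the libraries titled control. Titles were followed in naming the groups, and every direction given would turn round under the genotype entries. *Acvr1* was at 21.5 and 23.1 CPM in control and at 24.1 and 12.6 CPM in mutant libraries, groups that overlap (log2 fold change −0.33 ± 0.28 SE, limma adjusted p = 0.786), so *Acvr1* by itself does not tell the groups apart.

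The libraries were made with a kit that reads the 3′ end of poly(A) transcripts, so a level in CPM does not grow with the length of the gene and members can be compared with each other in CPM. They held between 1956831 and 2408827 reads, and 1 read was worth between 0.415 and 0.511 CPM. Nearly all values were whole numbers of reads, including every value of the 9 members, and reads are given beside CPM because most members rest on few of them. Intervals on reads are exact 95% Poisson intervals and cover counting error only. Between 194 and 449 of the listed genes were at 0 in a library, 449 and 429 in control and 194 and 200 in mutant libraries. What this imbalance does to the fold changes of genes with few reads was not tested.

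The promoters of both genes that passed the test, *Mrc1* and *Cx3cr1*, and of *C1qb*, the C1q gene with the most reads, are shown to let their start regions be compared. The windows are from RefSeq on GRCm38.p6, run from 250 bases before to 50 bases after the annotated start, and are written 5′ to 3′ on the strand of the gene. Capitals mark GAGGAA or, on the other strand, its reverse complement TTCCTC, a sequence contained in many binding sites of PU.1, the factor encoded by *Spi1* that directs myeloid development.
Mrc1 (chr2:14229164-14229463, plus strand): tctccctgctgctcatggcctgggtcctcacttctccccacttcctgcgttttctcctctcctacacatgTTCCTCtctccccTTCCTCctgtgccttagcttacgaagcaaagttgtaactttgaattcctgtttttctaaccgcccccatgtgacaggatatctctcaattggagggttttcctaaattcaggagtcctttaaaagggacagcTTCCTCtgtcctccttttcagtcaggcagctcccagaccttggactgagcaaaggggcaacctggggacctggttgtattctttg
Cx3cr1 (chr9:120068247-120068546, minus strand): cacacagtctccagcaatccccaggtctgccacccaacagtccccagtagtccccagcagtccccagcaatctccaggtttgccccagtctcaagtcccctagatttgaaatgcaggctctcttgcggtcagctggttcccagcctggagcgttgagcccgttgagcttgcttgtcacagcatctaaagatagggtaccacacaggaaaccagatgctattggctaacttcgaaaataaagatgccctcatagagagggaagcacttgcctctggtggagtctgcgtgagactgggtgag
C1qb (chr4:136886151-136886450, minus strand): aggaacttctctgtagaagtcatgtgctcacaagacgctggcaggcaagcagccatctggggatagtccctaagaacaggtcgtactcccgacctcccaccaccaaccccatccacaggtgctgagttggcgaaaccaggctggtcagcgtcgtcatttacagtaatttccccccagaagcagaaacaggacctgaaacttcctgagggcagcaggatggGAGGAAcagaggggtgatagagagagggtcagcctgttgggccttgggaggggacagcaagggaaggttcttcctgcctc
The window of *Mrc1* held 3 matches, all TTCCTC, that of *C1qb* held 1 and that of *Cx3cr1* held 0. Of the 9 members with a row, 6 were matched to a promoter by symbol, and 4 of the 6 contained the sequence, against 28.3% of the 32851 promoter windows in the table. A match describes these letters only and is not a binding site, and no match says only that the letters are not in this window.

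All 9 members had a log2 fold change above 0 in the mutant libraries, as did 54.2% of the 12462 genes tested. *Cx3cr1* and *Mrc1* passed the test in the direction of an increase, at an adjusted p under 0.05 from limma, where 0.305% of all genes tested were called higher, 0.594% lower and 0.899% in either direction. None of the members was called lower. At an unadjusted p under 0.05, 4 of the 9 were higher, against 5.42% of all genes. In 6 of the 9 both mutant values lay above both control values, against 21.9% of all genes. Each of these counts of higher members, other than the calls, includes *C1qa*, which passed the filter only through the mutant libraries. The median log2 fold change of the 9 was 0.60, and that of all genes tested was 0.03. The median of all genes was 0.044 with no filter on low values and 0.015 with at least 10 reads in every library. The members were not compared with genes at the same level. In bulk tissue, more macrophages and more RNA of these genes per macrophage cannot be told apart.

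The 9 genes together had 102 reads (interval 83.2 to 124) in control replicate 1, 119 (98.6 to 142) in control replicate 2, 210 (183 to 240) in mutant replicate 1 and 275 (244 to 310) in mutant replicate 2. Summed levels were 52.1 and 52.8 CPM in control, against 87.2 and 129 CPM in mutant libraries. The control libraries were nearly equal, both mutant libraries lay above them, and these differed from each other by more than their counting intervals. Mean sums were 52.5 ± 0.497 CPM in control and 108 ± 29.4 CPM in mutant libraries (SD, n = 2 each). Their ratio was 2.06 and ran from 1.65 to 2.47 over the pairs of single libraries. *Cx3cr1* did not carry this alone, since the other 8 genes summed to 29.1 and 33.3 CPM in control, against 48.2 and 77.7 CPM in mutant libraries, a ratio of 2.02. Without *Mrc1* as well, the remaining 7 genes had 24.5 and 25.8 CPM in control, against 33.2 and 59.4 CPM in mutant libraries. Their ratio was 1.84 and ran from 1.29 to 2.42 over the pairs of single libraries, with mutant replicate 2 the higher mutant library.

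**Figure D1:**
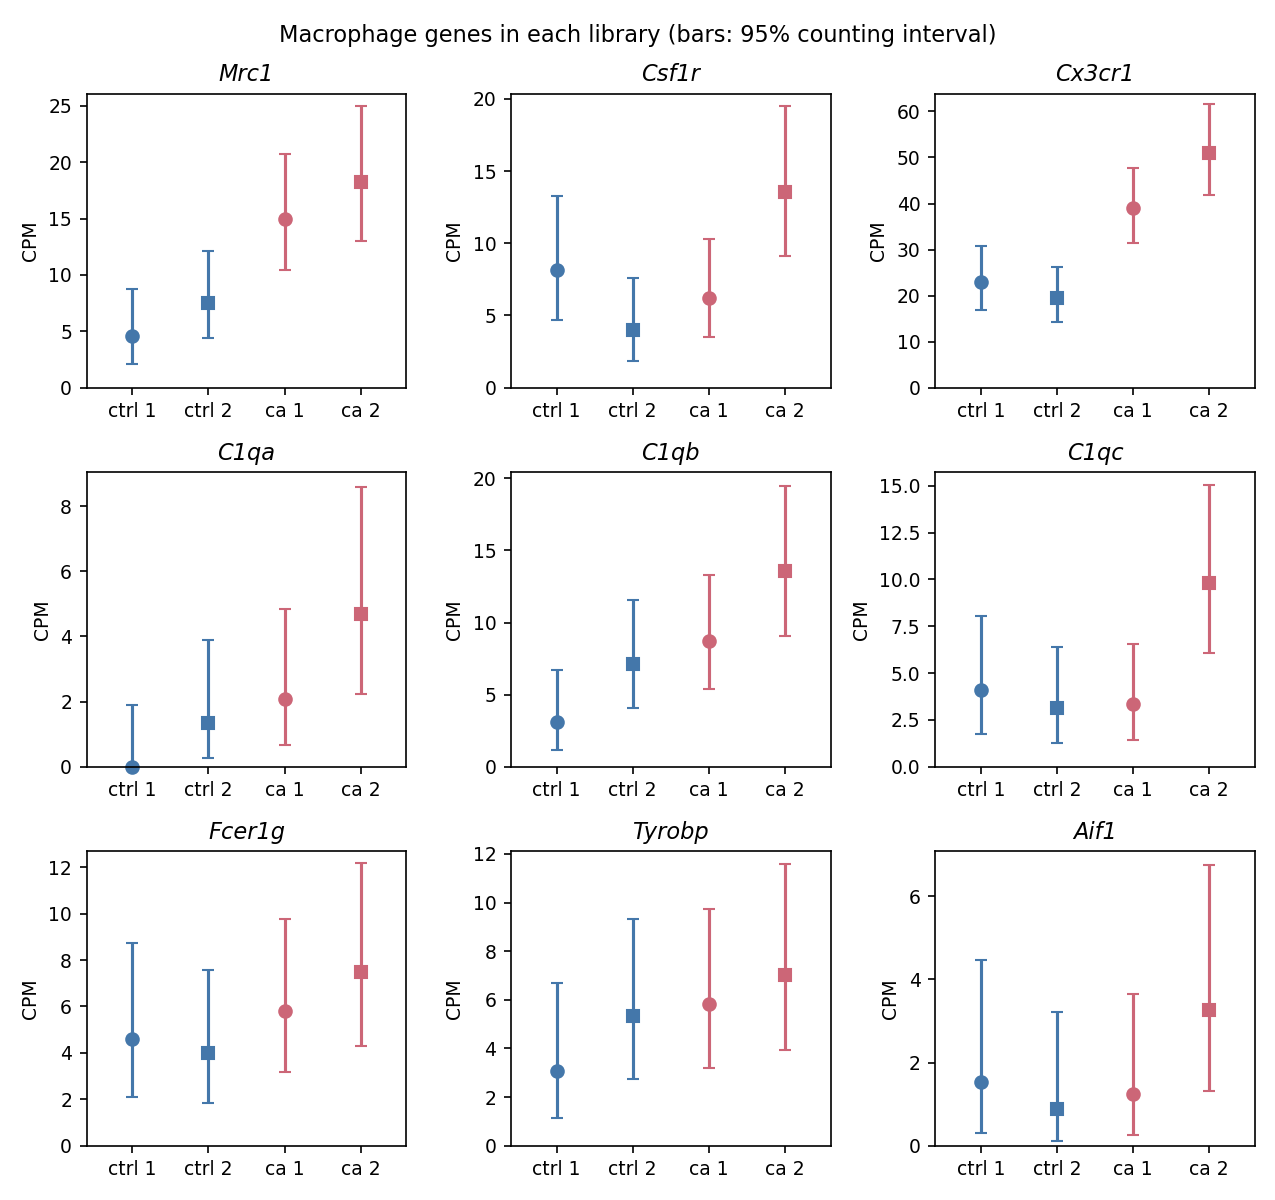
CPM of each of the 9 macrophage genes (vertical axis, from 0) in the control libraries (ctrl 1 and 2, blue) and the mutant libraries (ca 1 and 2, red), with exact 95% Poisson intervals of the reads as bars. *Cx3cr1* and *Mrc1* lie higher in both mutant libraries, and for *Csf1r*, *C1qc* and *Aif1* the groups overlap, with mutant replicate 2 above the other libraries.

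*Cx3cr1* encodes the receptor for the chemokine CX3CL1, by which macrophages and microglia adhere to and migrate toward cells that display it. Its transcripts had 45 and 44 reads in control and 94 and 109 reads in mutant libraries, which is 23.0 and 19.5 against 39.0 and 51.0 CPM. The groups did not overlap, and the lower mutant value was above the higher control value by more than the control replicates differed. The mean was 21.3 ± 2.45 CPM in control and 45.0 ± 8.47 CPM in mutant libraries (SD, n = 2 each). On log2(CPM + 1) the fold change was 1.04 ± 0.22 (SE, limma adjusted p = 0.0143). The call was lost without mutant replicate 2 (log2 fold change 0.85, limma adjusted p = 0.266) and with DESeq2 on the recovered reads (1.05, adjusted p = 0.273), which called 0.0749% of all genes higher, and the adjusted p over all alternatives ran from 0.000373 to 0.273. *Cx3cr1* lies on chromosome 9 of GRCm38 from 119901616 to 120069879 on the minus strand in GENCODE's annotation, a span that also holds other genes. The last exon of the transcript used, where reads of such libraries collect, runs from 120048683 to 120052343. Outside this last exon, an exon of *Cx3cr1* overlaps an exon of *Gm33858*, an antisense gene on the other strand with no row.

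*Mrc1* encodes the mannose receptor CD206, an endocytic receptor of tissue-resident macrophages. It had 9 and 17 reads in control and 36 and 39 reads in mutant libraries, or 4.60 and 7.55 against 14.9 and 18.2 CPM. The mutant values lay close together and apart from both control values. The mean was 6.07 ± 2.08 CPM in control and 16.6 ± 2.34 CPM in mutant libraries (SD, n = 2 each), with a ratio of 2.73 and a log2 fold change of 1.34 ± 0.33 (SE, limma adjusted p = 0.0411), which on log2(CPM + 1) understates the change of a gene at this level. The call stood near the threshold, since the adjusted p was 0.05002 with a pseudocount of 0.1 CPM, 0.0569 with limma-voom, 0.0805 without control replicate 1, 0.0777 without mutant replicate 1, 0.315 without mutant replicate 2 and 0.927 with DESeq2, and 0.00386 at its lowest. The log2 fold change stayed between 0.97 and 1.65 in each alternative. *Mrc1* lies on chromosome 2 of GRCm38 from 14229392 to 14332057, on the plus strand, and its last exon runs from 14330922 to 14332057.

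*C1qa*, *C1qb* and *C1qc* encode the chains of C1q, the recognition molecule of the classical complement pathway, which macrophages secrete and which binds dying cells. The genes lie side by side on the minus strand of chromosome 4 within 18675 bases, from 136880129 to 136898803 of GRCm38. None of them passed the test. *C1qb* had 6 and 16 reads in control and 21 and 29 reads in mutant libraries, or 3.07 and 7.10 against 8.72 and 13.6 CPM, groups that did not overlap (log2 fold change 1.05 ± 0.38 SE, limma adjusted p = 0.303). It was called without control replicate 2, with a log2 fold change of 1.55 and an adjusted p of 0.0403 from limma. *C1qa* had 0 and 3 reads in control and 5 and 10 reads in mutant libraries, and a count of 0 in control replicate 1, with a floor of 3 reads, allows up to 1.53 CPM, while its 95% Poisson interval reaches 1.885 CPM. The ratio of its reads per library total was 4.63, with an exact 95% interval of 1.31 to 24.95 for counting error alone, and the fitted log2 fold change of 1.45 ± 0.54 (SE, limma adjusted p = 0.322) depended on the pseudocount, at 3.09 with 0.1 CPM and 0.56 with 5 CPM. *C1qc* had 8 and 7 reads in control and 8 and 21 reads in mutant libraries, so that mutant replicate 2 alone lay apart (log2 fold change 0.58 ± 0.44 SE, limma adjusted p = 0.747). Without that library its log2 fold change was −0.081. The 3 chains together had 14 and 26 reads in control and 34 and 60 reads in mutant libraries.

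*Csf1r* encodes the receptor tyrosine kinase on which the survival of macrophages depends. It had 16 and 9 reads in control and 15 and 29 reads in mutant libraries, or 8.18 and 3.995 against 6.23 and 13.6 CPM. The groups overlapped, with the lower mutant value inside the range of the controls (log2 fold change 0.60 ± 0.39 SE, limma adjusted p = 0.694). The last exon of *Csf1r*, on chromosome 18, overlaps an exon of *Hmgxb3* on the other strand in GENCODE's annotation, and it is not given whether reads were counted by strand, so reads of both genes may be mixed there. *Csf1*, which encodes a ligand of the receptor, had 6 and 8 reads in control and 7 and 7 reads in mutant libraries (log2 fold change −0.07 ± 0.43 SE, limma adjusted p = 0.980). *Il34*, which encodes the other ligand, has no row in the table. *Cx3cl1*, which encodes the ligand of CX3CR1, had 3 and 1 reads in control and 9 and 4 reads in mutant libraries (log2 fold change 0.95 ± 0.52 SE, limma adjusted p = 0.592). Neither ligand passed the test.

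*Tyrobp* and *Fcer1g* encode small membrane adaptors with an immunoreceptor tyrosine-based activation motif (ITAM), through which activating receptors of myeloid cells signal. *Tyrobp* had 6 and 12 reads in control and 14 and 15 reads in mutant libraries, or 3.07 and 5.33 against 5.81 and 7.02 CPM (log2 fold change 0.54 ± 0.39 SE, limma adjusted p = 0.736). *Fcer1g* had 9 and 9 reads in control and 14 and 16 reads in mutant libraries, or 4.60 and 3.995 against 5.81 and 7.49 CPM (log2 fold change 0.52 ± 0.38 SE, limma adjusted p = 0.739). For both adaptors the mutant values lay above the control values without passing the test. *Aif1*, which encodes the calcium- and actin-binding protein IBA1 of macrophages and microglia, was the member with the lowest level in mutant libraries, with 3 and 2 reads in control and 3 and 7 reads in mutant libraries (log2 fold change 0.50 ± 0.52 SE, limma adjusted p = 0.844). Its groups overlapped, and the ratio of its reads per library total, 1.85, had an exact 95% interval of 0.577 to 6.91 for counting error alone.

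**Figure D2:**
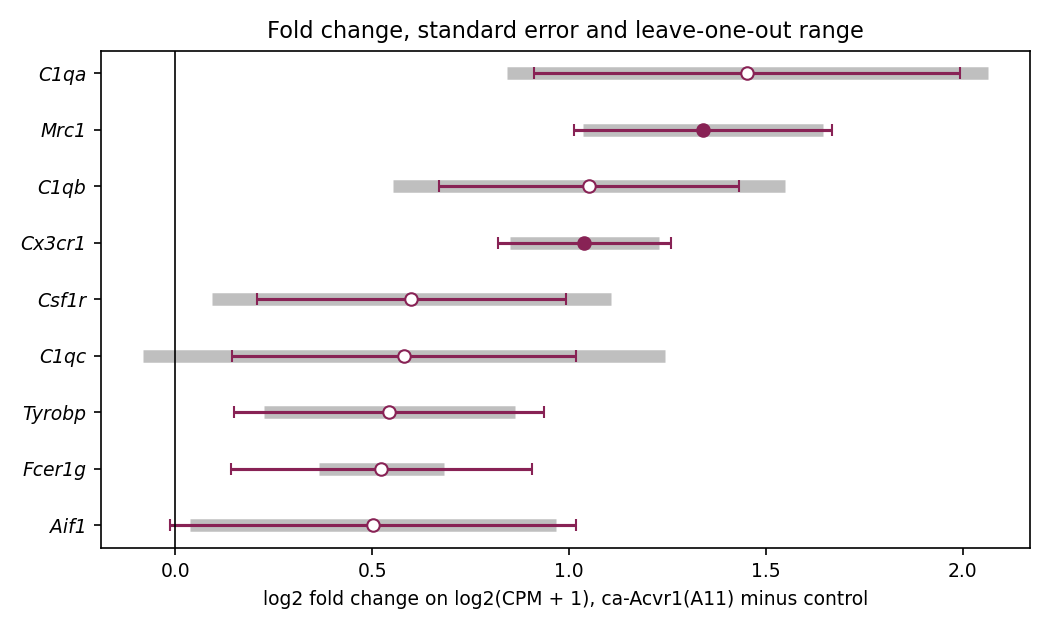
Log2 fold change of each macrophage gene on log2(CPM + 1), ca-*Acvr1(A11)* minus control (horizontal axis), with the standard error from limma as thin bars, the range over fits that leave out 1 library as grey bands, and filled points for genes with an adjusted p under 0.05. The values run from 0.50 for *Aif1* to 1.45 for *C1qa*, only *Cx3cr1* and *Mrc1* are filled, and only the grey band of *C1qc* reaches below 0.

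Within a library, *Cx3cr1* had the most reads of the 9 genes in all 4 libraries, with 44.1% and 37.0% of their reads in control and 44.8% and 39.6% in mutant libraries. *Mrc1* had 8.82% and 14.3% in control and 17.1% and 14.2% in mutant libraries, and its rank was 3, 2, 2 and 2. *C1qb* held between 5.88% and 13.4%, *Csf1r* between 7.14% and 15.7%, *Fcer1g* between 5.82% and 8.82% and *Tyrobp* between 5.46% and 10.1%. The middle ranks changed from library to library, and the counting intervals of neighbouring members there overlapped. *C1qa* and *Aif1* were the lowest in every library, at under 4% of the reads each.

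**Figure D3:**
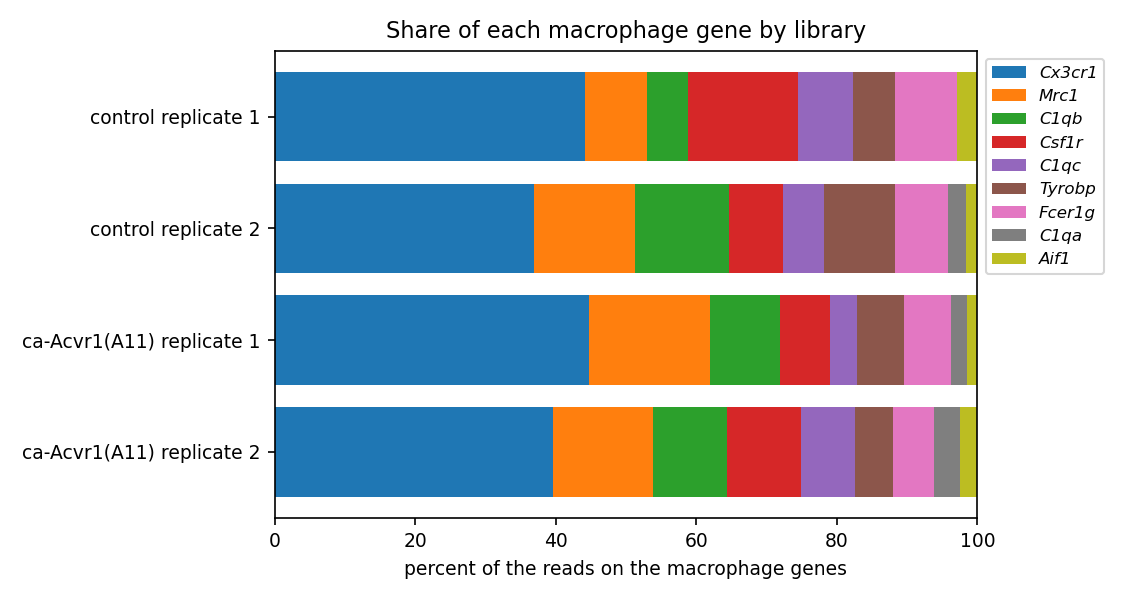
Share of the reads of the 9 macrophage genes that fell on each gene (horizontal axis, percent), with 1 bar for each library. *Cx3cr1* takes between 37.0% and 44.8% of each bar, and the share of *Mrc1* is smallest in control replicate 1, at 8.82%.

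Other myeloid genes were examined with lists written by hand. Of the 12462 genes tested, 54.2% had a log2 fold change above 0. At an unadjusted limma p under 0.05, 676 of them (5.42%) were higher and 514 lower. The counts of each list below stand against these shares. Transcription factors of the myeloid lineage had 10 of 11 genes tested, with 0 called, 8 log2 fold changes above 0 and a median of 0.39 (limma, and 2 genes higher at an unadjusted p under 0.05). Their sum was 104 and 100.3 against 117 and 112 CPM, a ratio of 1.12. *Spi1* had 3 and 1 reads in control and 9 and 6 reads in mutant libraries (log2 fold change 1.15 ± 0.50 SE, limma adjusted p = 0.439). *Ikzf1*, a factor of lymphoid and myeloid precursors, was at 11.2 and 6.66 CPM in control, against 13.7 and 16.4 CPM in mutant libraries (log2 fold change 0.72, limma adjusted p = 0.447).

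A longer list of macrophage markers had 57 genes, of which 33 have a row and 29 were tested. Of the 29, 22 had a log2 fold change above 0, with a median of 0.30, 0 were called higher and 2 were called lower by limma, and at an unadjusted p under 0.05 there were 3 in each direction. The genes called lower were *Cxcl12*, a chemokine that mesenchyme secretes, at 164 and 156 against 76.0 and 76.3 CPM (log2 fold change −1.06, limma adjusted p = 0.000151), and *Tmem119*, a microglial marker that osteoblast precursors also express, at 31.7 and 45.3 against 16.2 and 16.4 CPM (log2 fold change −1.17, limma adjusted p = 0.0100). Both are genes that cells other than macrophages also express. The remaining gene that was lower at an unadjusted p under 0.05 was *Alox5ap*, with 21 and 21 reads in control and 11 and 12 reads in mutant libraries. Its groups did not overlap (log2 fold change −0.86 ± 0.35 SE, limma adjusted p = 0.402). *Lcp1*, which encodes the actin-bundling plastin of blood cells, came nearest to a call in the other direction, with 28 and 22 reads in control and 67 and 50 reads in mutant libraries (log2 fold change 1.05 ± 0.27 SE, limma adjusted p = 0.0628). The 33 genes with a row summed to 418 and 423 CPM in control, against 366 and 383 CPM in mutant libraries. Their ratio of 0.890 lay the other way from that of the 9 members. *Cxcl12*, the largest term, was by itself lower by more CPM than the whole sum. The sum therefore does not describe most of the list, where 22 of the 29 genes tested had a log2 fold change above 0. Among all genes tested that share was 54.2%. Both mutant values lay above both control values in 9 of the 29 and below them in 4, against 21.9% and 16.8% of all genes. Defining markers with no row included *Adgre1*, *Trem2*, *Cd14*, *Cd163*, *Siglech* and *Timd4*. *Ptprc*, which encodes the CD45 antigen of all white blood cells, had 8 and 8 reads in control and 14 and 7 reads in mutant libraries.

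In the list of ITAM signalling, which holds receptors that pair with such adaptors and the kinases and adaptors downstream, 7 of 19 genes were tested and 0 were called (limma, 1 higher at an unadjusted p under 0.05), with a median of 0.22. *Fcgr3*, an Fc receptor that signals through FCER1G, had 8 and 10 reads in control and 15 and 31 reads in mutant libraries (log2 fold change 1.01 ± 0.39 SE, limma adjusted p = 0.351). In the list of CSF1R signalling, 14 of 17 genes were tested, 0 were called by limma, also without adjustment, and the median was 0.04. Of 28 other complement genes, 13 were tested, with 0 called higher, 1 called lower and a median of 0.16. The gene called was *Vtn*, which encodes vitronectin, an inhibitor of the terminal complement complex and a matrix protein, with 11 and 16 reads in control and 3 and 1 reads in mutant libraries (log2 fold change −2.01 ± 0.46 SE, limma adjusted p = 0.0247). No gene of this list was called without control replicate 2, without mutant replicate 2, with DESeq2, with a pseudocount of 0.1 CPM or with at least 10 reads in every library. *C3ar1*, the receptor for the C3a fragment on myeloid cells, had 6 and 14 reads against 15 and 25 (log2 fold change 0.82, limma adjusted p = 0.515).

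Genes for the clearance of apoptotic cells, which macrophages share with mesenchyme and other tissues, had 25 of 29 members tested, 0 called and a median of 0.16 (limma, 1 higher and 2 lower at an unadjusted p under 0.05). *Mfge8*, which bridges exposed phosphatidylserine to integrins, was at 91.0 and 79.5 CPM in control, against 109 and 118 CPM in mutant libraries (log2 fold change 0.41 ± 0.16 SE, limma adjusted p = 0.346). *Itgb5*, a subunit of the integrin that binds it, was at 47.5 and 60.8 against 37.8 and 40.2 CPM (log2 fold change −0.45, limma adjusted p = 0.432). The value of *Rac1* is not given, since 1 or more of its values are not whole reads.

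The other cell types of the tissue did not move together. Summed over 10 endothelial markers the level was 218 and 225 CPM in control, against 227 and 214 CPM in mutant libraries, with 0 genes called and a median log2 fold change of −0.04. The 8 erythroid markers with a row summed to 7051 and 8503 against 6724 and 7229 CPM, with 0 called and a median of −0.16. Megakaryocyte markers summed to 14.3 and 19.98 against 12.9 and 14.5 CPM. Of the granulocyte and mast cell markers 2 of 10 have a row, *Mpo* and *Prtn3*, which together had 10 and 11 reads in control and 9 and 1 reads in mutant libraries, and none of the 8 lymphocyte markers has one. None of these sums lay above both control values in both mutant libraries.

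The sums of epithelial and neural markers lay higher and that of mesenchymal markers lower. The 10 epithelial markers summed to 259 and 248 CPM in control, against 409 and 380 CPM in mutant libraries, with 2 genes called higher (*Cdh1* and *Epcam*) and a median log2 fold change of 0.61. The 10 neural markers summed to 1617 and 1597 against 1932 and 2063 CPM, with 0 called and a median of 0.18. *Sox2*, the largest term of this sum, was at 455 and 429 against 616 and 633 CPM. In 5 of the 10 both mutant values lay above both control values, against 21.9% of all genes. The 10 markers of cranial mesenchyme summed to 1547 and 1888 against 790 and 781 CPM, with 8 called lower and a median of −1.04, and of these *Pdgfra* has values that are not whole reads. The part of these shifts in the levels of the macrophage genes was not tested. The ratio of the sums was 2.06 for the 9 members and 1.12 for the myeloid factors. It was 0.890 for the longer list of macrophage markers, whose largest term was *Cxcl12*. For epithelial markers it was 1.56, for neural 1.24, for endothelial 0.996 and for mesenchymal markers 0.457. These ratios were not tested against each other.

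**Figure D4:**
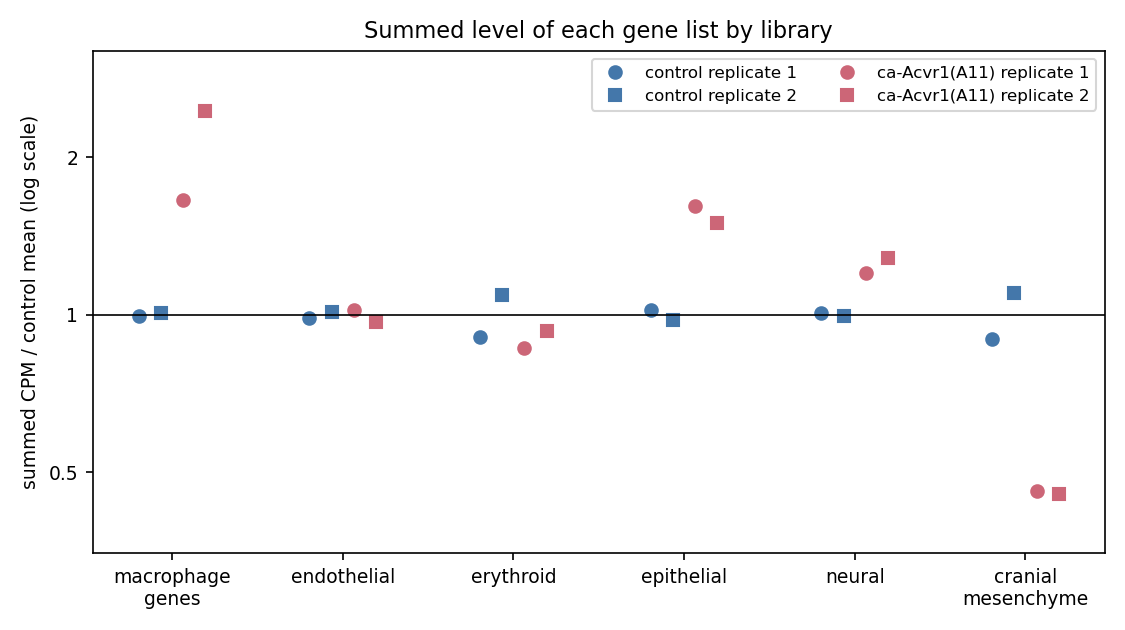
Summed CPM of the 9 macrophage genes and of marker lists of 5 other cell types, divided by the control mean of the list (vertical axis, log scale), with a point for each library. Both mutant points lie highest for the macrophage genes, near 1 for endothelial markers and lowest for cranial mesenchyme markers.

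Among 9766 genes with a mean of at least 5 CPM that are not members, the 5 whose profile over the 4 libraries lay nearest to that of the summed macrophage genes were *Ell3*, *Abcc4*, *Mblac2*, *Syt7* and *Ap1m2*. Their distances were 0.160, 0.202, 0.203, 0.207 and 0.220 on the log2 scale. With 4 libraries many genes can share such a profile, and *Ap1m2*, an adaptor subunit of epithelial cells, is among them.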

How the data were processed

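The 4 libraries of E11.5 NP tissues were grouped by their titles, with 2 in each group. The study's supplement gives a larger n for this comparison, and only these libraries were analyzed here. The authors deposited CPM values made from QuantSeq 3′ libraries, and the submitters' processing notes name STAR, featureCounts 1.6.4, DESeq2 and the build mm10 without their roles. The table has 13577 genes, each with at least 3 reads in all and a read in at least 2 libraries, and 33470 empty lines. Reads were recovered from the value of 1 read in each library. Within 0.02 reads, 99.92% of 54308 values were whole, and the other 43 lie in 22 genes, none of them a member. Values were used as deposited.

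Genes with a mean above 1 CPM (12462) were tested with limma 3.58.1 after log2(CPM + 1), fitting a trend of variance on level, groups by title and Benjamini-Hochberg adjustment over all genes, called at an adjusted p under 0.05. On the recovered reads edgeR 4.0.16 called 39 genes higher of 10168, and limma-voom and DESeq2 1.42.0 were tried as well. R was 4.3.3, Python 3.11.15, scipy 1.17.1 and matplotlib 3.10.9. An exact permutation test of 2 against 2 libraries cannot go below 0.333. The scripts were tested on simulated data. There, at a log2 change of 1 in either direction, limma called 7.89% of 38 changed genes under 10 CPM. At 10 CPM or more it called 79.0% of 62. A gene under 10 CPM that did not pass the test may therefore still differ. The members and the 15 other gene lists were chosen with earlier results of these data known. Named were the members, *Csf1*, *Il34*, *Cx3cl1*, *Spi1* and *Acvr1*, the genes called and the 3 with the smallest p of each list, of which some are given by counts only or are not reported here, and the 5 genes of nearest profile. *Ptprc*, *Alox5ap* and the markers with no row were named after their values were seen. Coordinates are from GENCODE M21 (GRCm38, the assembly of mm10), promoters from RefSeq. No column of values was left unused.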

Additional observations from a re-analysis of the deposited data

How the results depend on the processing

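Under 15 alternatives, 1 of them chosen after seeing the data (leaving out the 22 genes with values that are not whole reads), each member kept a log2 fold change above 0 wherever it was tested, except *C1qc*, which ran from −0.081 (without ca-*Acvr1(A11)* replicate 2) to 1.24 when 1 library was left out. The number of members called, 2 as reported, was 1 with a pseudocount of 0.1 CPM, 1 with limma-voom, 1 with at least 10 reads in every library (where 1 member was tested) and 0 with DESeq2 on the recovered reads, and it ran from 0 to 3 when 1 library was left out. With DESeq2, 0 of the 7 members with an adjusted p were called, and both *Cx3cr1* and *Mrc1* had an unadjusted p under 0.05 there (0.00240 and 0.0141). The median log2 fold change of the members was 1.04 with at least 10 reads in every library, where *Cx3cr1* alone remained, and ran from 0.43 to 1.23 when 1 library was left out. The number of all genes called, 112 as reported, was 39 with DESeq2 and ran from 94 to 462 when 1 library was left out, the highest without control replicate 1. The number of called genes in the other lists together, 13 as reported, was 7 with DESeq2. Of the members, *Cx3cr1* was called in 13 of 15 alternatives and *Mrc1* in 8 of 14.

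The titles number the libraries 1 and 2 in both groups. Same-numbered libraries share only a number, and the correlation of their deviations from the group means was 0.067. With the replicate block, 229 genes were called in all, and the 2 members called as reported, *Cx3cr1* (adjusted p = 0.000373 from limma) and *Mrc1* (0.00402), were the members called. A library left alone in its group was assumed to vary like the others. In every library 7 of the 9 members had at most 29 reads, and none of these 7 passed the test as reported.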
